A study of Sus scrofa with 11 samples.

Results

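The peroxisome proliferator-activated receptor (PPAR) fuel switch was followed in pig *M. semimembranosus* through 10 genes taken by symbol, a set of receptors with a coactivator (PPARA, PPARD, RXRA and PPARGC1A) and a set of their muscle targets (ANGPTL4, PDK4, UCP2, UCP3, MLYCD and ACSL1). The platform annotation gave a single symbol out of this list to 16 of the 23999 tested probe sets, and these cover 9 of the 10 genes out of 6765 genes on the array with a symbol of their own. No probe set carried the symbol MLYCD, so that gene has no member of its own and is taken up separately. A transcript is read on this array by probe sets, pools of short probes summarised as 1 expression level, here on a log2 scale, so that a difference of 1 is a doubling.

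Expression was measured in 5 gilts on the low protein (LP) diet and 6 gilts on the high protein (HP) diet, with 1 Affymetrix Porcine Genome array per pig. All were purebred Duroc females in the finisher stage that ate their diet freely for 63 days. The LP diet held 128 g/kg crude protein and 7 g/kg total lysine, against 217 g/kg and 13.0 g/kg in the HP diet, both at 14 MJ/kg digestible energy, with more wheat and less soyabean meal in the LP diet. The pigs had been blocked on their starting body weight and were kept in pens as groups, and neither the block, the pen nor the slaughter date is given per pig, so these cannot be told apart from the diet. There was no other diet, so the 2 diets are only compared with each other, and whether feed was withdrawn before slaughter is not given in the sources used here.

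PPARs are nuclear receptors that bind fatty acids and, paired with a retinoid X receptor, switch on genes for the use of fat. In skeletal muscle PPARD and PPARA, helped by the coactivator PPARGC1A, drive genes that bring fatty acids in and hold back the burning of glucose, and the programme is best known from fasting and exercise. PDK4 turns off pyruvate dehydrogenase and so spares glucose, ANGPTL4 blocks lipoprotein lipase outside the cell, ACSL1 couples fatty acids to coenzyme A, MLYCD destroys the malonyl-CoA that holds fatty acids out of the mitochondrion, and UCP2 and UCP3 are carriers of the inner mitochondrial membrane.

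The arrays had a common median of 6.72, and 74.9% to 85.3% of their probe sets lay above the highest of 23 negative control probe sets, the limit taken here as background. All 8 measured muscle fibre markers, CKM, DES, MYH7, MYH2, TNNT1, TNNT3, TTN and ACTN2, were above background on every array, with a mean level of 13.12 to 13.53 in LP pigs and 13.00 to 13.96 in HP pigs. None of the 23999 probe sets passed a Benjamini-Hochberg adjusted p of 0.05 (limma, smallest adjusted p 0.644), while 1227, or 5.11%, passed an unadjusted p of 0.05, the threshold that the study set on its P-like values. All calls on single genes stand at that unadjusted threshold. The 1000 brightest probe sets averaged 12.24 to 12.56 in LP pigs and 12.09 to 12.80 in HP pigs, and the 3 arrays at the upper end were HP1, HP2 and HP4.

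Of the 16 member probe sets, 5 passed the threshold and all 5 were lower in LP pigs: both for ANGPTL4 and 1 each for PDK4, ACSL1 and PPARA. Over all probe sets 5.11% passed, 2.97% as lower and 2.15% as higher in LP pigs. Read by the brightest probe set of each gene, 4 of the 9 members passed (PPARA, ANGPTL4, PDK4 and ACSL1), against 4.73% of all genes, or 3.16% lower in LP pigs. The median difference between LP and HP pigs was −0.35 over the 9 member genes and −0.04 over all genes. Of the 16 probe sets, 9 were above background on all arrays and 3 on none. ANGPTL4, PDK4 and ACSL1 are among the calls that the study itself made on these pigs, so the count is not independent of that choice.

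**Figure D1:**
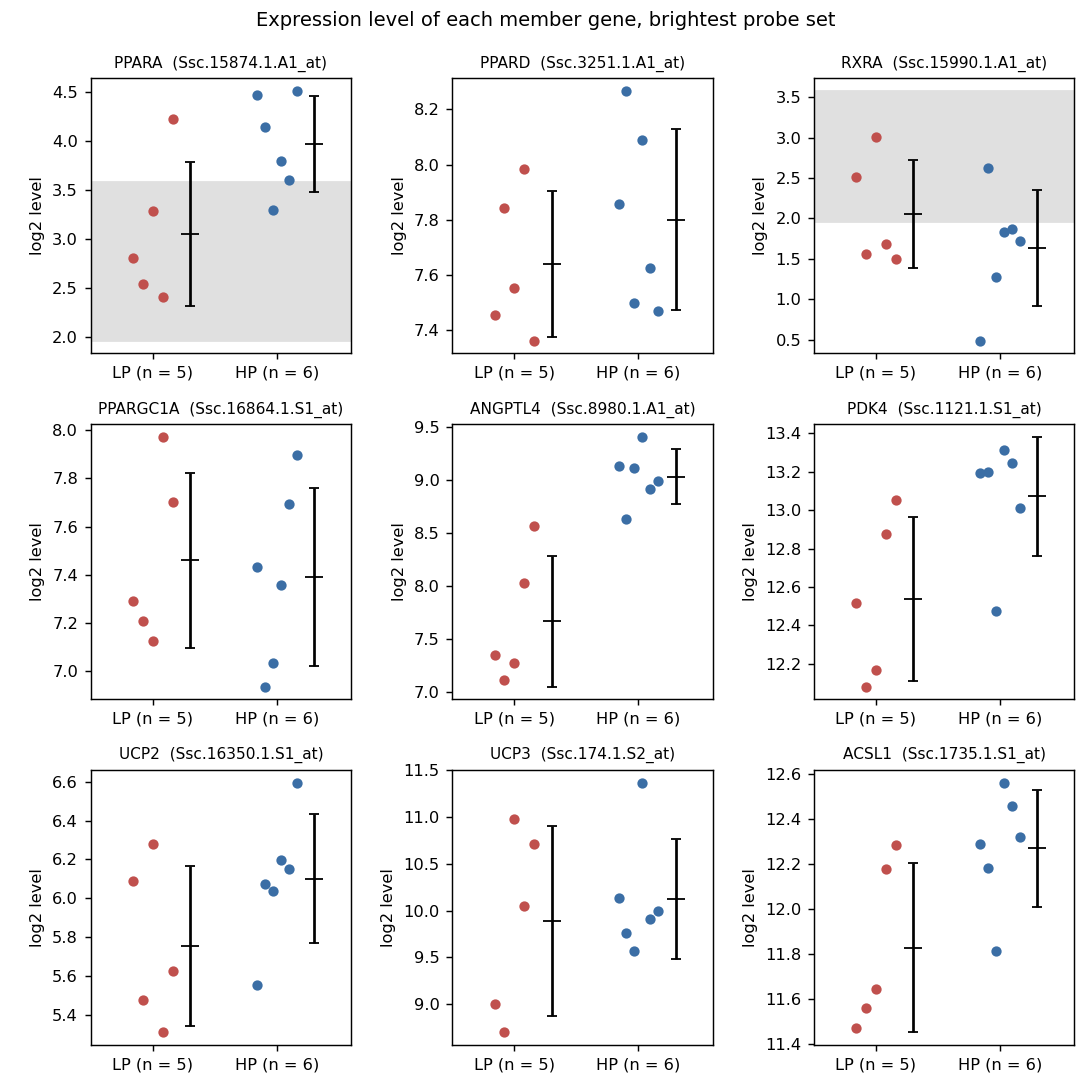
Deposited log2 level of each member gene by its brightest probe set, with a panel per gene, a point per pig (LP pigs at the left in red, HP pigs at the right in blue) and the mean with SD beside the points. The grey band is the range over the arrays of the highest negative control, from 1.96 to 3.58. ANGPTL4 is the panel in which the diets do not overlap, and RXRA lies at background.

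ANGPTL4, the secreted inhibitor of lipoprotein lipase, differed most between the diets. Its brighter probe set (Ssc.8980.1.A1_at) read 7.35, 7.11, 7.27, 8.03 and 8.56 in LP1 to LP5, against 9.13, 8.63, 9.11, 9.40, 8.91 and 8.98 in HP1 to HP6. Every LP pig lay below every HP pig, and the gap was narrow, with LP5 just under HP2. Such a separation was found for 0.329% of all probe sets. The mean was 7.67 ± 0.61 in LP pigs (SD, n = 5) and 9.03 ± 0.26 in HP pigs (SD, n = 6), a difference of −1.36 ± 0.26 (SE), or 2.57-fold lower in LP pigs (limma p = 0.000314, exact permutation p = 0.00216). After adjustment over all probe sets the limma p was 0.693. The LP pigs were the more spread, with LP4 and LP5 well above the other LP pigs.

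The dimmer ANGPTL4 probe set (Ssc.17345.1.S1_at) read 1.12, 0.57, 1.92, 1.90 and 5.10 in LP1 to LP5, against 5.56, 4.03, 5.71, 5.46, 5.93 and 5.78 in HP1 to HP6. It was above background in 1 of 5 LP pigs, LP5, and in 6 of 6 HP pigs. LP5 again stood nearest to the HP pigs and here lay above HP2. The difference was −3.29 ± 0.71 (SE; limma p = 0.000773, exact permutation p = 0.00433), and −2.14 when every value under the array's highest negative control was raised to it, since the 4 LP readings under background have no firm level. The probe sets varied together from pig to pig once the diet means were removed (r = 0.84 over 11 arrays), and both kept their call under every alternative run on them, 21 and 20 in number, including the loss of any single array.

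The transcript can be identified by the primers with which the study measured ANGPTL4 by qPCR, which it designed on the target sequence of the array. The study lists this assay beside the dimmer probe set, Ssc.17345.1.S1_at. Its qPCR step was also lower in LP pigs, but smaller than the difference given above for that probe set. The primers are shown 5′ to 3′ because they are the one piece of sequence for the gene at hand here.
ANGPTL4 forward primer: tgcaagatgacctcagatgg
ANGPTL4 reverse primer: ctccgaagccatccttgtag

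PDK4, the kinase that shuts pyruvate dehydrogenase, was also lower in LP pigs, by a smaller step. Its brighter probe set (Ssc.1121.1.S1_at) read 12.52, 12.08, 12.17, 12.87 and 13.05 in LP1 to LP5, against 13.20, 13.20, 12.47, 13.31, 13.24 and 13.01 in HP1 to HP6. HP3 was low among HP pigs and lay among the LP pigs, and LP4 and LP5 were again the highest LP pigs. The mean was 12.54 ± 0.43 in LP pigs (SD, n = 5) and 13.07 ± 0.31 in HP pigs (SD, n = 6), a difference of −0.53 ± 0.22 (SE), or 1.45-fold lower (limma p = 0.0324, exact permutation p = 0.0498). The dimmer one (Ssc.10131.1.A1_at) read 11.41, 10.23, 10.50, 11.71 and 12.23 in LP1 to LP5, against 12.08, 11.84, 11.36, 12.23, 11.87 and 12.14 in HP1 to HP6. Its difference of −0.70 ± 0.34 (SE) missed the threshold (limma p = 0.0654, exact permutation p = 0.0931). The PDK4 probe sets varied together from pig to pig (r = 0.90 with the diet means removed).

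ACSL1, the acyl-CoA synthetase of muscle fat oxidation, read 11.47, 11.56, 11.64, 12.18 and 12.29 in LP1 to LP5, against 12.29, 12.18, 11.81, 12.56, 12.46 and 12.32 in HP1 to HP6 (Ssc.1735.1.S1_at). LP1, LP2 and LP3 lay below every HP pig, and LP4 and LP5 within the HP range. The mean was 11.83 ± 0.38 in LP pigs (SD, n = 5) and 12.27 ± 0.26 in HP pigs (SD, n = 6), a difference of −0.44 ± 0.19 (SE), or 1.36-fold lower (limma p = 0.0429, exact permutation p = 0.0455).

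The calls on PDK4 and ACSL1 were near the threshold and rested on most of the arrays. PDK4 lost its call without any 1 of HP1, HP2, HP4, HP5, LP1, LP2 or LP3, where the difference was −0.53 to −0.42. ACSL1 lost it without any 1 of HP1, HP2, HP4, HP5, HP6, LP1, LP2 or LP3, at −0.46 to −0.35. Without HP1, HP2 and HP4 together the differences were −0.37 for PDK4 and −0.37 for ACSL1, and neither passed. Both genes belong to the bright end of the array, where levels were somewhat lower in LP pigs as a whole. The 465 genes with a mean level of 12 or more had a median difference of −0.16, and 0.86% of them were called lower. PDK4 and ACSL1 were the only genes among them with a difference of −0.44 or below (0.43%). That bound was set at the value of ACSL1, which meets it by construction, and PDK4 lies beyond it, so the share is a description with no test. After quantile normalization, which brought that median to 0.00, PDK4 was at −0.38 and ACSL1 at −0.37, and both passed the limma threshold.

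**Figure D2:**
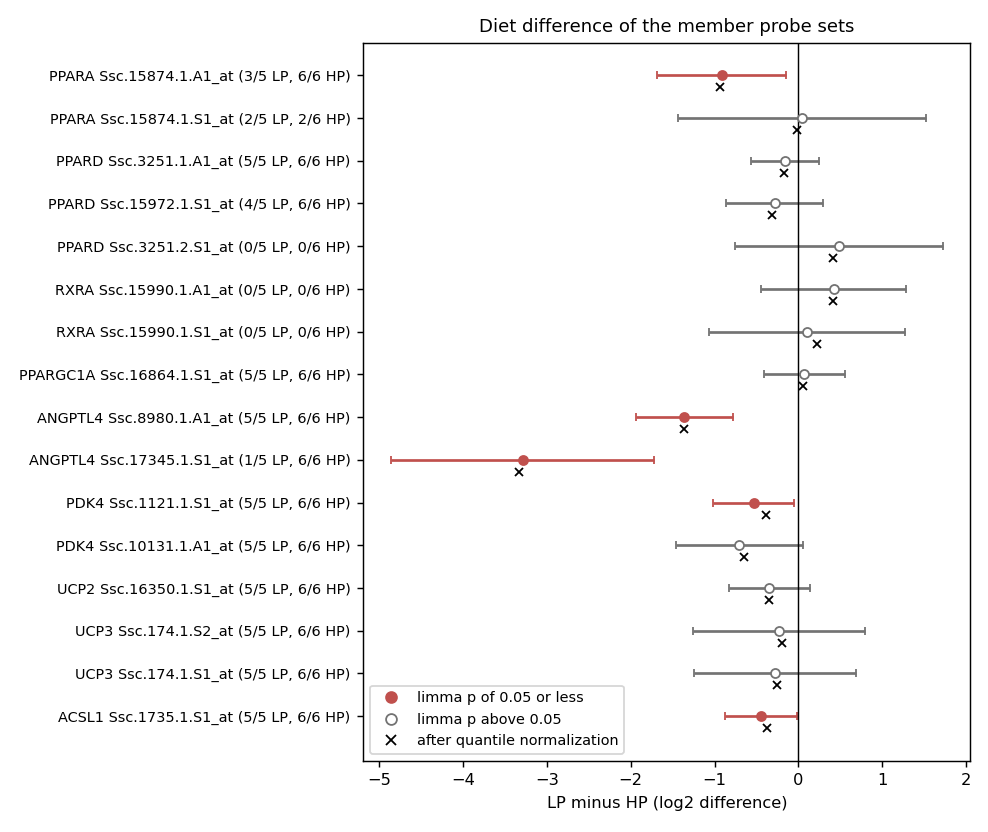
Difference between LP and HP pigs in log2 level for the 16 member probe sets, each point with its 95% confidence interval from limma, and the value after quantile normalization as a cross. The labels give in how many pigs of each diet the probe set was above background. Filled points, 5 in number, passed an unadjusted p of 0.05, and all lie left of 0.

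PPARA, a receptor of fatty acids, read at or near background by both of its probe sets. Its probe set Ssc.15874.1.A1_at read 2.81, 2.54, 3.29, 2.41 and 4.22 in LP1 to LP5, against 4.47, 4.14, 3.29, 3.80, 3.60 and 4.51 in HP1 to HP6, and was above background in 3 of 5 LP pigs and 6 of 6 HP pigs. LP5 alone among the LP pigs reached the middle of the HP range. The difference was −0.92 ± 0.35 (SE; limma p = 0.0232, exact permutation p = 0.0411), and it missed the threshold without LP1, LP2 or LP4 (−0.86 to −0.76). The other PPARA probe set (Ssc.15874.1.S1_at) read 3.75, 4.06, 2.04, 2.48 and 1.22 in LP1 to LP5, against 4.15, 2.59, 3.10, 3.33, 0.58 and 2.24 in HP1 to HP6. It was above background in 2 of 5 LP pigs and 2 of 6 HP pigs, differed by 0.04 ± 0.67 (SE; limma p = 0.949, exact permutation p = 0.955), and did not follow the first from pig to pig (r = −0.28 over 11 arrays). With the 2 averaged, PPARA was at −0.44 ± 0.33 (SE) and did not pass, while ANGPTL4, PDK4 and ACSL1 did.

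PPARD, the main PPAR of muscle fibres, did not pass by any of its 3 probe sets. The brightest (Ssc.3251.1.A1_at) read 7.45, 7.84, 7.55, 7.98 and 7.36 in LP1 to LP5, against 7.86, 8.27, 7.50, 8.09, 7.63 and 7.47 in HP1 to HP6. The diets overlapped over nearly the whole range, with a difference of −0.16 ± 0.19 (SE; 95% interval −0.57 to 0.25, limma p = 0.402, exact permutation p = 0.383). The probe set Ssc.15972.1.S1_at, above background in 4 of 5 LP pigs and 6 of 6 HP pigs, differed by −0.28 ± 0.26 (SE; limma p = 0.3, exact permutation p = 0.316), and Ssc.3251.2.S1_at was above background on no array.

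RXRA, the partner of the PPARs on DNA, was above background on no array by either of its probe sets, so neither a level nor a difference can be given for it. PPARGC1A, the coactivator, read 7.29, 7.21, 7.12, 7.97 and 7.70 in LP1 to LP5, against 7.43, 6.94, 7.03, 7.36, 7.69 and 7.90 in HP1 to HP6 (Ssc.16864.1.S1_at). The diets overlapped throughout, and the difference of 0.07 ± 0.22 (SE; limma p = 0.758, exact permutation p = 0.745) had a 95% interval of −0.41 to 0.55.

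Neither uncoupling protein passed. UCP2 read 6.09, 5.48, 6.28, 5.31 and 5.63 in LP1 to LP5, against 5.56, 6.07, 6.04, 6.20, 6.15 and 6.60 in HP1 to HP6 (Ssc.16350.1.S1_at). HP1 lay among the low LP pigs, and the difference was −0.35 ± 0.22 (SE; 95% interval −0.83 to 0.14, limma p = 0.146, exact permutation p = 0.165). UCP3, whose gene follows UCP2 in the RefSeq annotation of assembly Sscrofa11.1, had the widest spread within a diet of the well-measured members. Its probe set Ssc.174.1.S2_at read 9.003, 8.698, 10.981, 10.054 and 10.713 in LP1 to LP5, against 10.141, 9.760, 9.568, 11.371, 9.906 and 9.997 in HP1 to HP6. LP1 and LP2 were lowest of all the pigs, and LP3 and HP4 highest. The mean was 9.89 ± 1.01 in LP pigs (SD, n = 5) and 10.12 ± 0.64 in HP pigs (SD, n = 6), a difference of −0.23 ± 0.46 (SE; 95% interval −1.26 to 0.79, limma p = 0.624, exact permutation p = 0.649). The other UCP3 probe set (Ssc.174.1.S1_at) differed by −0.28 ± 0.44 (SE; limma p = 0.54, exact permutation p = 0.561) and followed the first from pig to pig (r = 0.99 over 11 arrays).

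MLYCD, malonyl-CoA decarboxylase, could be read only through the study's own annotation, which gives its symbol to the probe set Ssc.18522.1.A1_at, a probe set that the platform annotation used here leaves unnamed. The study listed that probe set because it was called on these pigs, so its values are a description with no test and are in none of the counts. It read 7.616, 5.155, 7.360, 7.503 and 7.759 in LP1 to LP5, against 8.021, 8.408, 7.802, 8.736, 8.450 and 8.374 in HP1 to HP6. All LP pigs lay below all HP pigs, LP5 narrowly (7.759, against 7.802 in HP3), and LP2 lay far below the rest. Such a separation was found for 0.329% of all probe sets, and this probe set was picked from the study's calls. The difference was −1.22, and −0.74 without LP2.

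The same 2 LP pigs stood nearest to the HP pigs in 3 targets. In order of rising level the LP pigs were LP2, LP3, LP1, LP4 and LP5 for both ANGPTL4 and PDK4, and LP1, LP2, LP3, LP4 and LP5 for ACSL1. For UCP3 the order was LP2, LP1, LP4, LP5 and LP3. Among HP pigs, HP4 was highest for all 4 genes and HP3 lowest for PDK4, ACSL1 and UCP3, while HP3 lay among the higher HP pigs for ANGPTL4. LP4 and LP5 also had the highest mean of the spike-in controls among LP arrays, at 11.775 and 11.636, against 11.428 to 11.556 in LP1 to LP3. Among HP arrays that mean was highest in HP4 (12.222) and lowest in HP3 (11.297), while HP2, lowest for ANGPTL4, had 12.194. The part of array brightness in these orders was not tested.

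**Figure D3:**
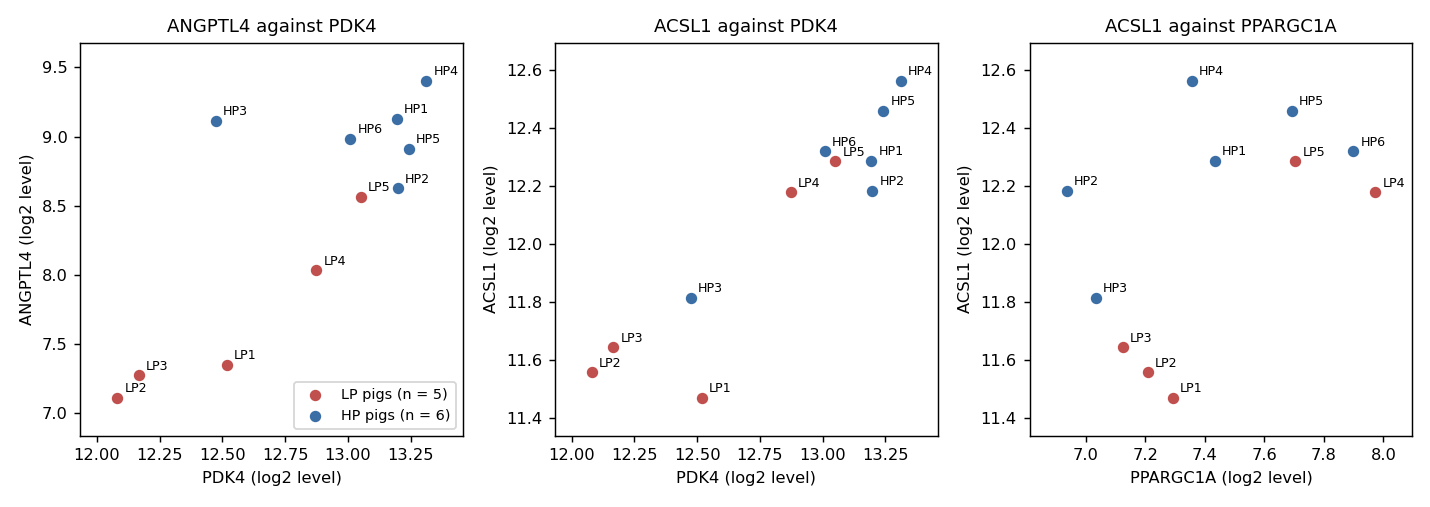
Levels of pairs of member genes in each pig, on the log2 scale of the deposited values, with LP pigs in red and HP pigs in blue: ANGPTL4 against PDK4, ACSL1 against PDK4 and ACSL1 against PPARGC1A. LP5 sits beside the HP pigs in the first 2 panels. LP4 does so in PDK4 and ACSL1 but lies below the HP pigs in ANGPTL4. HP3, low in PDK4 and ACSL1, stays with the HP pigs in ANGPTL4.

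Covariation between members was measured over the 11 pigs after the diet means were removed, in 36 pairs of genes with exact permutation p-values over all orders of the pigs within their diet. None of the 36 pairs reached an adjusted p of 0.05, and the smallest was 0.227 for r and 0.18 for rho. The closest pair was PDK4 and ACSL1 (r = 0.88, rho = 0.89, exact permutation p = 0.0063 and 0.005, adjusted p = 0.227 and 0.18). Their r was 0.80 without the 2 pigs farthest from the median of PDK4, 0.90 within the 6 HP pigs and 0.81 with the mean of the 27 hybridisation spike-ins removed as well. ANGPTL4 and ACSL1 had r = 0.74 and rho = 0.68 (exact permutation p = 0.0303 and 0.0517, adjusted p = 0.273 and 0.372), and 0.59 without the 2 farthest pigs, but 0.25 within HP pigs. RXRA, which was above background on no array, had r = 0.74 and rho = 0.76 with UCP2 (exact permutation p = 0.0176 and 0.017, adjusted p = 0.268 and 0.204). Its r was 0.82 without the 2 pigs farthest from the median of RXRA. A pair with no reading of 1 of its genes thus stood as high as ANGPTL4 and ACSL1, and as PPARGC1A and ACSL1 below.

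ANGPTL4 and PDK4 had r = 0.65 and rho = 0.63 (exact permutation p = 0.0671 and 0.0785, adjusted p = 0.411 and 0.375). That relation rested on a few LP pigs: it was 0.36 without the 2 pigs farthest from the median, −0.04 within the HP pigs and 0.07 without LP4 and LP5. PPARGC1A, which did not pass between the diets, had r = 0.72 and rho = 0.74 with ACSL1 (exact permutation p = 0.0223 and 0.0152, adjusted p = 0.268 and 0.204). Its r was 0.76 without the 2 pigs farthest from the median of PPARGC1A, 0.57 within HP pigs and 0.88 with the spike-in mean removed. With PDK4 its r was 0.59 and its rho 0.56 (exact permutation p = 0.0749 and 0.0938, adjusted p = 0.411 and 0.375), and r was 0.69 without those 2 pigs, 0.30 within HP pigs and 0.79 with the spike-in mean removed. PPARA, read from a probe set near background, had r = 0.39 with ANGPTL4 (rho = 0.21), 0.44 with PDK4 (rho = 0.27) and 0.40 with ACSL1 (rho = 0.38; exact permutation p = 0.375, 0.235 and 0.301 for r). Without HP6 and LP5, the pigs farthest from its median, these r were −0.20, 0.21 and 0.04.

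Spike-in signal moved with some of these genes. The mean of the spike-ins, control transcripts added to each sample at hybridisation, was 11.58 ± 0.14 in LP pigs (SD, n = 5) and 11.84 ± 0.40 in HP pigs (SD, n = 6; exact permutation p = 0.186). Across the pigs, with the diet means removed, it had r = 0.66 with PDK4 (rho = 0.72, exact permutation p = 0.00414 and 0.00598, adjusted p of r over 9 genes 0.0373). Its r was 0.78 with PPARD (rho = 0.77, exact permutation p = 0.0114, adjusted p = 0.0515) and 0.56 with ACSL1 (rho = 0.59, exact permutation p = 0.0312, adjusted p = 0.0937). With ANGPTL4 it was 0.17 (rho = 0.32, exact permutation p = 0.47) and with PPARGC1A −0.01 (rho = 0.08, exact permutation p = 0.988). Without the 2 arrays farthest from the median of the spike-ins these 5 values were 0.66, 0.57, 0.63, 0.27 and 0.40. With the spike-in mean as a covariate ANGPTL4 was at −1.30 and kept its call, while PDK4 (−0.33), ACSL1 (−0.29) and PPARA (−0.84) lost theirs. The difference between the 3′ and 5′ actin probe sets, a measure of RNA integrity and amplification, was 5.53 ± 0.35 in LP pigs (SD, n = 5) and 5.96 ± 0.42 in HP pigs (SD, n = 6; exact permutation p = 0.123). With it as a covariate ANGPTL4 was at −1.15 with its call kept, and PDK4 (−0.25), ACSL1 (−0.19) and PPARA (−0.72) did not pass. The part of either measure in the PDK4, ACSL1 and PPARA results was not tested beyond these fits.

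**Figure D4:**
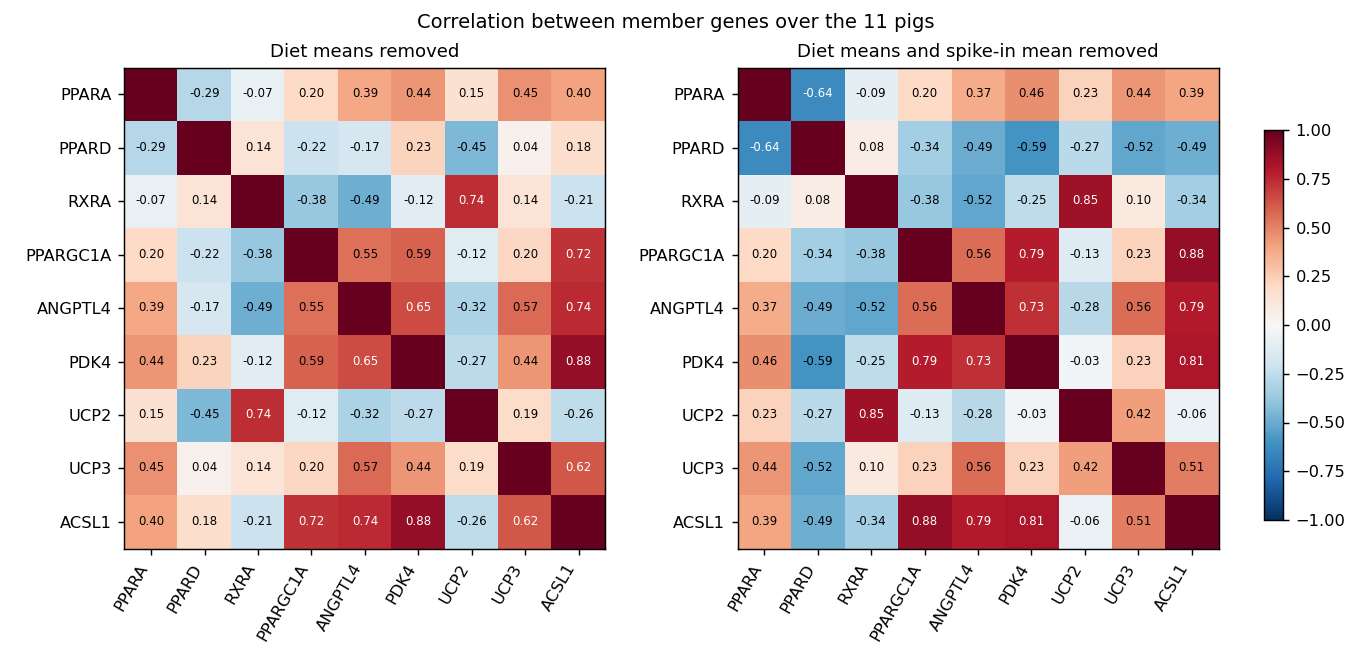
Pearson correlation between the brightest probe sets of the 9 member genes over the 11 pigs, with the diet means removed (left) and with the spike-in mean of each array removed too (right). On the left PPARGC1A, ANGPTL4, PDK4 and ACSL1 have r of 0.55 to 0.88 with one another, and UCP3 has 0.62 with ACSL1 and 0.57 with ANGPTL4. Within HP pigs ANGPTL4 had r = −0.04 with PDK4, 0.18 with PPARGC1A and 0.25 with ACSL1. There PDK4 and ACSL1 had 0.90, and UCP3 had 0.72 with ACSL1. No pair passed adjustment over the 36 pairs. RXRA lies at background, so its cells carry no reading of the gene.

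The genes most like ANGPTL4 and PDK4 were sought among 4671 genes with a mean level above the median of all probe sets, by the correlation over the 11 arrays with the diet means removed, as a description with no p. For ANGPTL4 these were RBP7 (r = 0.90), a retinol-binding protein, TMEM14A (0.88), the splicing factor SRSF6 (0.87) and the arrestin-like ARRDC4 (0.85). For PDK4 they were TACC1 (0.97), TAF13 (0.94), a subunit of the general transcription factor TFIID, RTN3 (0.93) and LAMTOR3 (0.93). These 8 genes did not pass between the diets, and after quantile normalization r was 0.70 for SRSF6 and 0.78 for TACC1 and LAMTOR3. They were picked as the highest of 4671 over only 11 arrays, so a high r follows in part from the choice. Whether any of them is linked to ANGPTL4 or PDK4 was not tested.

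Other genes of the pathway were read from lists, each gene by its brightest probe set, against the 3.16% of all genes called lower and 1.57% called higher in LP pigs. Among the other PPARs, retinoid X receptors and cofactors, 0 of 9 measured genes passed, the median difference was −0.03, and RXRG came nearest at 0.58 ± 0.33 (SE; limma p = 0.103, exact permutation p = 0.128). Of the other inducers of PDK4 and ANGPTL4, the FOXO factors, KLF15, the glucocorticoid receptor NR3C1 and the catalytic subunits of AMPK, 0 of 6 passed, with a median of −0.08. PRKAA1, an AMPK subunit, had the smallest p there, at −0.12 ± 0.17 (SE; limma p = 0.487, exact permutation p = 0.474).

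Around PDK4 itself, 0 of 8 genes for the pyruvate dehydrogenase complex, its other kinases and phosphatases and the pyruvate carrier passed, and 6 were below 0 (median −0.15). MPC2, a subunit of the carrier that takes pyruvate into the mitochondrion, was nearest at −0.30 ± 0.16 (SE; limma p = 0.0851, exact permutation p = 0.0736), and −0.20 after quantile normalization, where it passed. Around ANGPTL4, 0 of 5 genes of the lipoprotein lipase axis and fatty acid uptake passed (median −0.01). Lipoprotein lipase (LPL), the enzyme that ANGPTL4 blocks, averaged 11.87 ± 0.23 in LP pigs (SD, n = 5) and 11.86 ± 0.28 in HP pigs (SD, n = 6), a difference of 0.01 with a 95% interval of −0.35 to 0.37. FABP3, the fatty acid carrier of the muscle cytosol, had the smallest p in that list (−0.37 ± 0.21 SE; limma p = 0.108, exact permutation p = 0.108).

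Among the genes for malonyl-CoA and the carnitine entry of fatty acids, 1 of 7 passed, lower in LP pigs, and the median was −0.21. SLC25A20, the carrier that brings acylcarnitine across the inner membrane, averaged 10.609 ± 0.270 in LP pigs (SD, n = 5) and 11.002 ± 0.234 in HP pigs (SD, n = 6), a difference of −0.39 ± 0.16 (SE; limma p = 0.0332, exact permutation p = 0.0325), lost without any 1 of HP1, HP2, HP4, HP5, LP1, LP2 or LP5 (−0.40 to −0.31). It was also lost with the spike-in covariate (−0.24), with the actin covariate (−0.22) and without HP1, HP2 and HP4 together (−0.23). CPT1A, an outer-membrane entry enzyme, differed by −0.45 ± 0.22 (SE), which missed the threshold by limma (p = 0.0636) with an exact permutation p of 0.0195. CPT1B, from the same list, differed by −0.27 ± 0.15 (SE) and passed neither test (limma p = 0.0933, exact permutation p = 0.0736). Of 15 other PPAR targets of muscle, 14 were below 0 with a median of −0.27 (−0.18 after quantile normalization), and 1 passed, or 3 after quantile normalization, where HADHA and ETFDH of fatty acid oxidation passed too. Over all genes 57.5% were below 0, but these targets were bright as a list, with a mean level of 10.97 to 11.34 in LP pigs. The median over all genes was −0.045 at levels of 10 to 12 and −0.16 at 12 or more. The 8 muscle fibre markers were also all below 0 (median −0.24, and 0.00 after quantile normalization). The 1 of the 15 targets that passed as deposited was PLIN2, the lipid droplet coat protein, at 7.27 ± 0.14 in LP pigs (SD, n = 5) and 7.93 ± 0.53 in HP pigs (SD, n = 6). Its difference was −0.66 ± 0.24 (SE; limma p = 0.0183, exact permutation p = 0.0216), and it kept its call with each array left out but lost it with the actin covariate (−0.61) and with the replicate number as a block (−0.61).

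In the relatives of the members, 1 of 8 passed: ACSL6, a synthetase best known from brain, higher in LP pigs by 1.27 ± 0.44 (SE; limma p = 0.0152, exact permutation p = 0.0238), though above background in only 3 of 5 LP pigs and 2 of 6 HP pigs and not past the threshold (0.36) with values raised to the negative controls. ACSL3, ACSL4 and ACSL5 differed by 0.11, 0.02 and 0.01, against −0.44 for ACSL1.

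**Figure D5:**
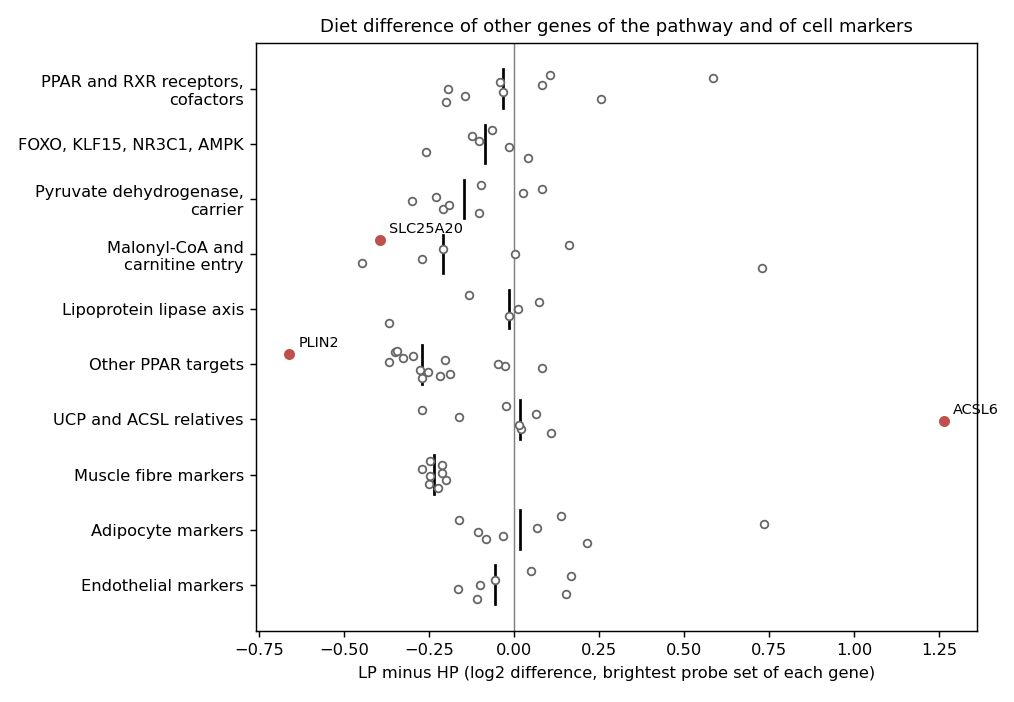
Difference between LP and HP pigs in log2 level for the measured genes of each pathway list and of 3 marker lists, a point per gene by its brightest probe set, with the list median as a bar. Filled and named points passed an unadjusted p of 0.05: SLC25A20 and PLIN2 lower in LP pigs, ACSL6 higher. The 8 muscle fibre markers lie together at about −0.2, a shift that is 0.00 after quantile normalization.

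In a piece of muscle, fewer cells of a type and less RNA per cell cannot be told apart, so marker lists were read beside the members. None of the 8 muscle fibre markers passed and all 8 were below 0 (median −0.24, and 0.00 after quantile normalization). By its own fat measurement the study found more intramuscular fat in this muscle on the LP diet. Of the 8 measured adipocyte markers, none passed and 4 were below 0 (median 0.02). Those below 0 were FABP4 (−0.11), LIPE (−0.16), CFD (−0.08) and CIDEA (−0.03). Above 0 were GPD1 (0.07), RETN (0.14), the defining ADIPOQ (0.22) and LEP (0.74, limma p = 0.0533, exact permutation p = 0.0887). After quantile normalization 1 of the 8, GPD1, passed as higher in LP pigs (0.26, against 0.07 as deposited). GPD1 had a mean level of 13.01, against 6.45 for ADIPOQ. The mean level of the 8 markers was 7.63 to 8.15 in LP pigs and 7.39 to 8.18 in HP pigs, and all 8 were above background on every array. Of 7 endothelial markers none passed (median −0.06, mean level 8.49 to 8.89 in LP pigs and 8.41 to 8.92 in HP pigs). None of 4 fibroblast markers (median −0.26) and none of 2 red blood cell markers (median 0.15) passed. Of 5 macrophage markers 1 passed, MARCO, which was above background on no array, and the median was −0.22. The part of cell composition in the ANGPTL4, PDK4 and ACSL1 results was not tested.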

How the data were processed

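The authors deposited a log2 level for each probe set and pig (1 Affymetrix array per pig), from R, Bioconductor and puma. How background and scale were set is not given in the sources used here, and the equal array medians show a common scale. The authors' fold changes and P-like values were not used. Of 24123 probe sets, 124 controls were left out. Symbols came from the platform annotation: 10069 probe sets had 1, 198 several and 13732 none.

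LP minus HP was fitted over all probe sets with limma 3.58.1 (lmFit, eBayes, two-sided) in R 4.3.3, and single members were also tested by exact permutation over the 462 splits of the pigs into 6 and 5, two-sided. Correlations and figures were made in Python 3.11.15, with 86400 orders of the pigs within their diets. All member probe sets were named, with, from each pathway list, the genes past the threshold or the gene with the smallest p. LPL, CPT1A, CPT1B, the ACSL genes, HADHA, ETFDH and the adipocyte markers were named after their values were seen. The members and lists were chosen with earlier results of these data known. Both the fit and the correlation test were tested on simulated data. The closest arrays of a diet differed by a mean of 0.537, so none is a copy. The number of arrays limits the precision. The p-values of the diet comparison set a difference against the spread between these pigs, and do not account for pen or slaughter date.

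The alternatives were quantile normalization, leaving out dim probe sets, 2 floors on low values, a trended robust prior, weighted arrays, a block for the replicate number, spike-in and actin covariates, leaving out arrays, and averaging the probe sets of a gene. The floor at the negative controls and the joint omissions of HP1, HP2 and HP4 and of LP4 and LP5 were chosen after seeing the data.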

Additional observations from a re-analysis of the deposited data

Results flagged for a closer look

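In 4 of the 32 groups of values searched (16 probe sets in each diet), a single pig lay farther from the rest than Dixon's 95% critical value, which is 0.71 for 5 pigs and 0.625 for 6; chance alone marks about 1 group in 20. All 4 are in HP pigs, and no LP pig stood out by this measure.

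In PDK4 (Ssc.1121.1.S1_at) HP3 was the lowest HP pig at 12.474, with the next at 13.01. HP3 also had the lowest spike-in mean of the 11 arrays, 11.297. In UCP3, HP4 was the highest HP pig by both probe sets, at 11.371 with the next at 10.141 (Ssc.174.1.S2_at) and at 9.384 with the next at 8.28 (Ssc.174.1.S1_at). HP4 had the highest spike-in mean, 12.222. In ANGPTL4 (Ssc.17345.1.S1_at) HP2 was the lowest HP pig at 4.027, with the next at 5.457. HP2 had a spike-in mean of 12.194, just under that of HP4, so its low reading did not go with a low spike-in mean. The part of the array's brightness in these values was not tested.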

How the results depend on the processing

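With 5 and 6 arrays, differences of the size of PDK4 and ACSL1 lie at the edge of what the spread between pigs lets pass, and for probe sets near background the direction is not settled. Both ANGPTL4 probe sets kept their direction and call under every alternative run on them (−1.59 to −1.15 and −4.04 to −2.14). The 5 member calls became 2 with the spike-in covariate, 2 with the actin covariate and 2 without HP1, HP2 and HP4 together, and lay between 2 and 6 with single arrays left out; the other alternatives gave 4 to 6. The 1227 calls over all probe sets became 710 with dim probe sets left out (fewer were tested) and 1884 without HP1, HP2 and HP4, and lay between 1066 and 1521 with single arrays left out; the cause was not tested. The share of calls lower in LP pigs, 58% here, was 44.9% with the spike-in covariate, 43.1% with the actin covariate and 40.1% without HP1, HP2 and HP4. The dimmer PDK4 probe set passed under 4 alternatives and without HP3, LP4 or LP5 (−0.96 to −0.81). No pair of members passed adjustment under any alternative.

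Directions turned only in differences that did not pass. With the actin covariate these were PPARA Ssc.15874.1.S1_at (−0.19), PPARD Ssc.3251.1.A1_at (0.061) and UCP3 (0.253 and 0.208). With the spike-in covariate they were PPARD (0.038) and UCP3 (0.072 and 0.047), and without HP1, HP2 and HP4 together PPARD (0.108), PPARGC1A (−0.081) and UCP3 (0.066 and 0.040). Quantile normalization turned PPARA Ssc.15874.1.S1_at (−0.019) and array weights PPARGC1A (−0.048). With single arrays left out, PPARA Ssc.15874.1.S1_at ran from −0.37 to 0.42, PPARGC1A from −0.059 to 0.171, RXRA Ssc.15990.1.S1_at, which lies below background on every array, so that its sign carries no reading of the gene, from −0.20 to 0.34, UCP3 Ssc.174.1.S2_at from −0.507 to 0.064, and the correlation of PPARA with ANGPTL4 from −0.30 (without LP5) to 0.58. That correlation was −0.10 without LP4 and LP5.

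The replicate numbers of the diets pair nothing: same-numbered pigs correlated at −0.07 to 0.09 in their deviations from the diet means, and only LP5 correlated best with its own number. With the replicate block 4 member probe sets passed and 1232 probe sets in all; PPARA Ssc.15874.1.A1_at did not (−0.81), PPARA Ssc.15874.1.S1_at was at −0.042 and the RXRA probe set below background at −0.13, and PLIN2 did not pass (−0.61).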

Other observations

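Within a pig, the level of one gene less that of another takes out any scale factor that the array gives to both. These 4 differences were chosen after the values were seen and are given with no test. ANGPTL4 less LPL was 1.37 lower in LP pigs than in HP pigs, and no LP pig reached the lowest HP pig. LPL itself differed by only 0.01, so this repeats the difference (−1.36) and the separation of ANGPTL4 alone and adds no support to them. ANGPTL4 less PDK4 was 0.83 lower, with 5 of 5 LP pigs under the HP mean. ACSL1 less ACSL4 was 0.46 lower, with 5 of 5 LP pigs under the HP mean, and mostly repeats ACSL1 (−0.44), since ACSL4 differed by 0.02. PDK4 less PDHA1 was 0.31 lower, with 3 of 5 LP pigs under the HP mean. A single array left out moved these differences at most to −1.26, −0.69, −0.36 and −0.18 at the small end.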
